A study of Mus musculus with 4 samples.

Results

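The subject is the insulin-like growth factor (IGF) system in mouse popliteal vessels. It is represented by 9 genes of the 32286 counted: the ligand genes Igf1 and Igf2, the receptor gene Igf1r, and 6 genes for binding proteins, Igfbp2, Igfbp3, Igfbp4, Igfbp5, Igfbp6 and Igfbp7. The genes were taken by their symbols from the feature lists, by a rule that uses no measured value. Each of the 9 had UMIs in at least 1 class of vessel-wall cells.

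IGF1 and IGF2 are secreted peptides that act mainly through the receptor tyrosine kinase IGF1R, which signals through docking proteins to PI3 kinase and AKT and supports growth and survival, in smooth muscle among other tissues. Most of the ligand in tissue fluid is held by binding proteins, which slow its clearance, keep it from the receptor, and are cut by proteases that set it free. IGFBP7 differs from the others in that it binds IGFs only weakly, and it is known as a protein of vessel walls.

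The data were UMI counts from single cells, each UMI (unique molecular identifier) marking 1 captured RNA molecule. All mice were adults that carried a GFP-Cre fusion at the Wt1 locus (WT1GFPCre) and the Cre-dependent tdTomato reporter Ai9-tdT, and all had received Evans blue dye in the footpad. Popliteal lymphatic vessels (PLV) were sampled as 2 replicate libraries, PLV 1 and PLV 2, each from a pool of 2 mice digested for 30 min with collagenase I, Dispase II, DNase and Liberase. One further library, called mixed here, combined PLV with blood vessels (BV) from 1 pool of 2 mice, digested for 60 min with collagenase I and Dispase II alone. No mice without the Cre or the reporter were analysed here, and cells of the mixed library were not divided by vessel. Vessel, enzymes, digestion time, run, mice and the version of the counting software therefore differed together between PLV and mixed and cannot be told apart.

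After filtering, PLV 1 held 1909 cells, PLV 2 held 516 and mixed held 994, with medians of 3372 to 6162 UMIs per cell and no cell barcode shared between libraries. Cells were clustered in each library without the 9 genes, and clusters were called "X-like" from marker genes. Of the 10 muscle markers 6 to 10 were raised in muscle-like clusters, and of the 7 lymphatic markers 4 to 7 in lymphatic endothelial-like ones. Fibroblast-like, pericyte-like and blood endothelial-like clusters had 6 to 8 of 8, 7 of 8 and 4 to 9 of 9. Levels are in CPM, the UMIs of a gene summed over a class in 1 library and scaled to a common total. Where 3 levels stand in a row they are those of PLV 1, PLV 2 and mixed, in that order. UMIs are read at the 3' end of a transcript, so levels were not divided by gene length. Intervals are 95% exact ones and cover counting error only.

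On GRCm38 the genes lay on 6 autosomes. Igfbp2 (chr1:72824503-72852474, plus strand) and Igfbp5 (chr1:72857932-72874884, minus strand) are neighbours whose 3' ends face each other across 5457 bases. Igf1r (chr7:67952827-68233668, plus) and Igf2 (chr7:142650766-142666816, minus) share chromosome 7, and Igfbp3 (chr11:7206086-7213923, minus) and Igfbp4 (chr11:99041244-99054392, plus) share chromosome 11. The remaining genes are Igf1 (chr10:87858265-87937042, plus), Igfbp6 (chr15:102144362-102149511, plus) and Igfbp7 (chr5:77349240-77408041, minus). Igf1, Igf2 and Igfbp7 overlap Igf1os, Igf2os, and Polr2b with Gm34648, respectively, which the files count separately. Values of these 3 members are uncertain to the extent that reads were split among overlapping genes.

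Igfbp4 and Igfbp5 differed in opposite directions between kinds of muscle-like cells, and Igfbp3 differed between endothelial subsets, so the bases before their RefSeq start sites (GRCm38.p6) are shown. Capitals mark matches on either strand to the E-box CANNTG, the GC box GGGCGG, the TATA motif TATAAA or the CArG box. The windows are chr11:99040994-99041243 (plus strand) for Igfbp4, chr1:72874885-72875115 (minus strand) for Igfbp5 and chr11:7213924-7214173 (minus strand) for Igfbp3. Bases inside the annotated gene were left out for Igfbp5.
Igfbp4: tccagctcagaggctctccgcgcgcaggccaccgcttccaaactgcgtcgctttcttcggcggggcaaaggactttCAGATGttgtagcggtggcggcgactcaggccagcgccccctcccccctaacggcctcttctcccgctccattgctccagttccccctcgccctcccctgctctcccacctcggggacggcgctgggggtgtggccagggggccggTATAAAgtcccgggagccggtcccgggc
Igfbp5: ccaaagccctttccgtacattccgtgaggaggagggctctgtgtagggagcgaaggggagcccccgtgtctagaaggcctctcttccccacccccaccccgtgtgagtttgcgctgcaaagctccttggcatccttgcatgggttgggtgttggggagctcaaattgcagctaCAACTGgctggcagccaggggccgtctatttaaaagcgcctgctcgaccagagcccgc
Igfbp3: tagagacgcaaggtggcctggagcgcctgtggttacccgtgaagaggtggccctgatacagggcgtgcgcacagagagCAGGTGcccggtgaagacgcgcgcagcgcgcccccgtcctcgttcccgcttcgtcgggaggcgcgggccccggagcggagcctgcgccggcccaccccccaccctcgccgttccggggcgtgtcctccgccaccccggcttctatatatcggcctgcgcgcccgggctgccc
Each window held 1 E-box match, a motif found in 66.2% of all 32851 promoter windows. TATAAA was present in the Igfbp4 window and is found in 12.4% of all windows. None of the 3 windows held GGGCGG, found in 32.7% of all, or a CArG box, found in 1.47%.

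Igf1, the main local growth factor of the system, was highest in fibroblast-like cells of each library. Its level there was 379, 375 and 438 CPM, against 0.907, 0 and 4.49 CPM in muscle-like cells, from 2, 0 and 11 UMIs. The classes did not overlap, and fibroblast-like cells were higher (adjusted p = 1.57e-09, edgeR quasi-likelihood test on 3 libraries with the library as a block). Tests are given below as log2 differences ± their standard error (SE), and without one where the lower group had 3 UMIs or fewer in 2 or more libraries. These differences use library totals rescaled by TMM, a trimmed mean over genes. They can therefore be unlike the ratio of the CPM levels printed beside them. A UMI of Igf1 was seen in 56.7%, 49.4% and 68.1% of fibroblast-like cells, and in 39.8%, 37.1% and 36.6% of those thinned to 1500 UMIs each. In muscle-like cells these thinned shares were 0.242%, 0% and 0.987%, with median depths of 4710, 6721 and 7503.5 UMIs before thinning against 4057, 4225 and 6933 in fibroblast-like cells. Both endothelial classes held intermediate levels, 73.7 ± 9.70 CPM (mean ± SD, n = 3) in lymphatic and 68.3 ± 9.29 in blood endothelial-like cells, and did not differ beyond their spread (0.11 ± 0.28, adjusted p = 0.866). Pericyte-like cells held 19.9 ± 13.5 CPM, below blood endothelial-like cells (adjusted p = 0.00751), a call lost without PLV 2 (adjusted p = 0.0696). Immune cells of all kinds held 159, 129.6 and 163 CPM.

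Igf2, the ligand best known from fetal growth, was low in all 5 classes. Mean levels were 43.9 ± 29.0 CPM (SD, n = 3) in blood endothelial-like, 38.3 ± 52.5 in pericyte-like, 33.2 ± 44.2 in fibroblast-like and 30.7 ± 22.1 in muscle-like cells, and none of the 6 pairs of these classes passed the test. Lymphatic endothelial-like cells held 2.63, 5.35 and 1.21 CPM, below blood endothelial-like cells (lymphatic minus blood -4.45 ± 0.95, adjusted p = 0.00234). Igf2 was uneven within blood endothelium. In PLV 1 it was at 297 CPM in a cluster of arterial-like cells, named there alone, and at 2.86 in capillary-like cells. Venular-like cells averaged 4.84 ± 6.77 CPM (SD, n = 3). Single cells held much of the Igf2 signal: 1 cell had 143 of the 154 UMIs of fibroblast-like cells in PLV 1, and 1 cell had 11 of the 12 UMIs of blood endothelial-like cells in PLV 2. Lymphatic endothelial-like minus fibroblast-like was -3.73 ± 0.97, adjusted p = 0.00605, and -1.86 (adjusted p = 0.303) without the UMIs of the highest cell in each sum, an alternative added after the data were seen. Without PLV 1 the same pair (adjusted p = 0.541) and lymphatic endothelial-like minus muscle-like (adjusted p = 0.0885) were not called either.

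Igf1r, the receptor gene, was highest among the 5 classes in muscle-like cells of each library, at 380.5, 405 and 139 CPM. Pericyte-like cells held 202, 155 and 80.0 CPM, blood endothelial-like cells 183, 172 and 60.9, fibroblast-like cells 192, 151 and 34.1 and lymphatic endothelial-like cells 156, 125 and 55.5. Within PLV 1, PLV 2 or mixed no other class reached the muscle level, whereas across libraries the ranges overlapped, and none of the 6 pairs among the other 4 classes passed. Fibroblast-like minus muscle-like was -1.25 ± 0.19, adjusted p = 7.28e-05, and lymphatic endothelial-like minus muscle-like was -1.49 ± 0.19, adjusted p = 1.03e-05. The call of pericyte-like minus muscle-like (-1.20 ± 0.22, adjusted p = 0.00163) was lost without PLV 2 (adjusted p = 0.0621). Without the library block the calls against fibroblast-like (adjusted p = 0.093), pericyte-like (adjusted p = 0.184) and blood endothelial-like cells (adjusted p = 0.0977) were lost. Igf1 and its receptor gene thus had their highest levels in different classes.

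The 6 binding protein genes together gave 11131 ± 1533 CPM (SD, n = 3) in muscle-like cells, 7242 ± 588 in fibroblast-like, 6067 ± 1179 in pericyte-like, 4480 ± 766 in blood endothelial-like and 1374 ± 490 in lymphatic endothelial-like cells. Immune cells held 180 ± 73.0 CPM. Igfbp5 supplied 60.6%, 55.6% and 50.9% of the binding protein UMIs of muscle-like cells. Igfbp7 supplied 69.9%, 85.7% and 88.3% of those of blood endothelial-like cells, and Igfbp5 supplied 70.3%, 83.9% and 70.7% of those of lymphatic endothelial-like cells. In fibroblast-like cells Igfbp6 supplied 28.3%, 26.8% and 22.1%, and the leading gene was Igfbp5 in PLV 1 (52.3%) and PLV 2 (29.1%) and Igfbp7 in mixed (47.5%).

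**Figure D1:**
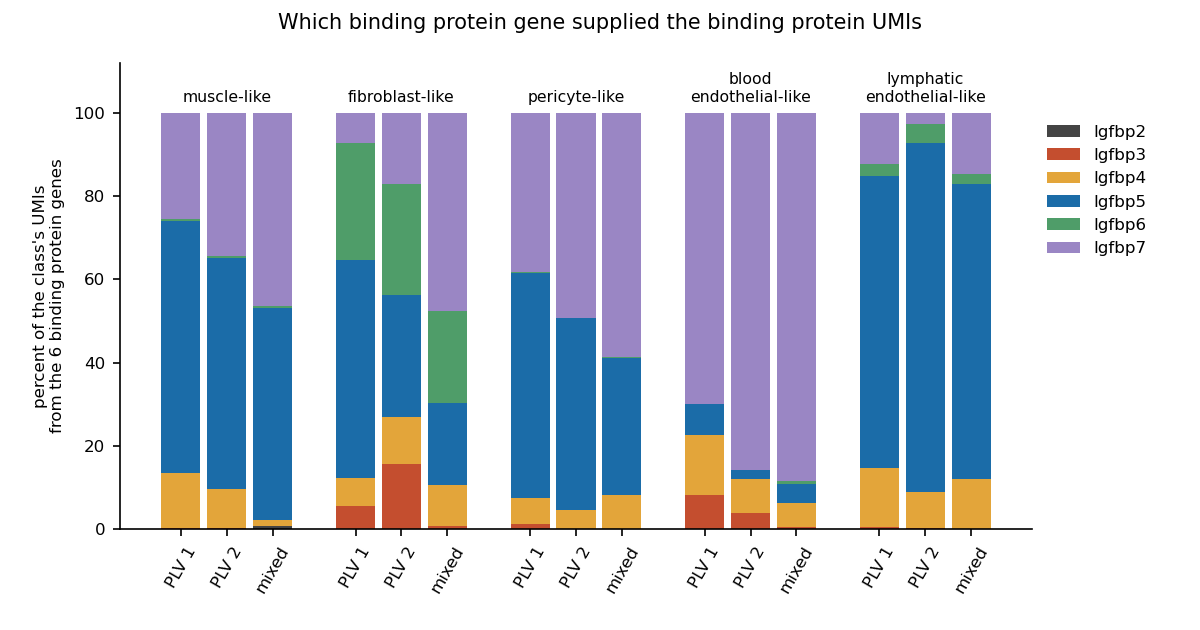
Share of each of the 6 binding protein genes, in percent of their summed UMIs, in 5 classes (stacked bars, 1 per library, with no error shown). Igfbp7 fills most of each blood endothelial-like bar and Igfbp5 most of each lymphatic endothelial-like bar, and Igfbp6 takes 22.1% to 28.3% of the fibroblast-like bars.

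Igfbp5, whose product binds extracellular matrix as well as IGFs, was the most abundant member in muscle-like cells, at 6656, 5385 and 6480.3 CPM. It was detected in 97.7% to 99.0% of muscle-like cells thinned to 1500 UMIs and in 1.89%, 0% and 0% of immune cells, whose median depths were 2258, 5139 and 5322 UMIs. Pericyte-like cells held 2621 ± 321 CPM (SD, n = 3) and fibroblast-like cells 2401 ± 1106, a pair that did not pass (-0.18 ± 0.33, adjusted p = 0.761). Lymphatic endothelial-like cells held 1054.5, 1500.4 and 589 CPM and blood endothelial-like cells 210.1 ± 109 (SD, n = 3). The endothelial classes did not overlap, and lymphatic minus blood was 2.30 ± 0.36, adjusted p = 0.000141. Muscle-like cells were above pericyte-like cells (pericyte minus muscle -1.42 ± 0.34, adjusted p = 0.011), a call lost without PLV 1 (adjusted p = 0.0507). Lymphatic endothelial-like cells were below fibroblast-like cells (-1.36 ± 0.34, adjusted p = 0.00434), also not called without PLV 1 (adjusted p = 0.0635).

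Igfbp7 had the opposite order in endothelium. Blood endothelial-like cells held 2770.4, 3527 and 4736 CPM and lymphatic endothelial-like cells 185, 46.0 and 123. These classes did not overlap, and lymphatic minus blood was -4.89 ± 0.57, adjusted p = 8.34e-06. Muscle-like cells held 4009 ± 1669 CPM (SD, n = 3), pericyte-like cells 3022 ± 1181 and fibroblast-like cells 1808 ± 1722, and no pair among these and blood endothelial-like cells passed. As a measure of free RNA, near-empty barcodes of mixed, each under 50 UMIs, held 1109 CPM of Igfbp7 and 1083 of Igfbp5. They also held 185 CPM of Igfbp4, 176 of Igfbp6 and 91.9 of Igf1, above the levels in mixed of Igf1 and Igfbp6 in the 4 classes other than fibroblast-like and of Igfbp4 in muscle-like and lymphatic endothelial-like cells. The Igfbp5 of both endothelial classes and the Igfbp7 of the lymphatic one in mixed also lay below these barcodes. The remaining members held 9.99 to 30.0 CPM there. In mixed, Igf2 lay below its near-empty level of 14.0 CPM in the 4 classes other than blood endothelial-like. Igfbp3 lay below its near-empty level of 12.0 CPM in pericyte-like and lymphatic endothelial-like cells, and Igfbp2 below its 9.99 outside muscle-like cells. Immune cells, which should lack Igfbp7 and Igfbp5, held 3.25, 8.64 and 11.2 CPM of Igfbp7 and 16.2, 4.32 and 0 of Igfbp5.

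Igfbp6, whose product prefers IGF2 over IGF1, was highest in fibroblast-like cells among the 5 classes, at 1977, 1826 and 1751 CPM. Outside these classes perineurial-like cells held 5404 CPM in PLV 1 and 5166 in mixed, the latter 613 without 1 of its 10 cells. The other 4 classes held 3.65 ± 3.16 CPM (SD, n = 3; pericyte-like) to 47.5 ± 31.4 (lymphatic endothelial-like), without overlap. Fibroblast-like minus muscle-like was 5.51 ± 0.58, adjusted p = 1.65e-06. Pericyte-like cells had 1, 0 and 2 UMIs, too few for a fold, and were below fibroblast-like cells (adjusted p = 2.76e-06). Lymphatic endothelial-like and muscle-like cells did not differ beyond their spread (0.02 ± 0.54, adjusted p = 0.987).

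Igfbp4, a binding protein cut by the protease PAPP-A, held 1463, 909 and 181 CPM in muscle-like cells and 466, 778 and 786 in fibroblast-like cells. These classes overlapped and fibroblast minus muscle did not pass (0.09 ± 0.54, adjusted p = 0.925). Lymphatic endothelial-like cells held 156 ± 55.4 CPM (SD, n = 3), below fibroblast-like (-2.49 ± 0.56, adjusted p = 0.00212) and muscle-like cells (-2.40 ± 0.56, adjusted p = 0.00213). The call against muscle-like cells was lost without PLV 2 (adjusted p = 0.0516).

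Igfbp3, the main carrier of IGFs in blood plasma, varied between libraries in fibroblast-like and blood endothelial-like cells. Fibroblast-like cells held 394, 1068 and 53.5 CPM and blood endothelial-like cells 322, 157 and 29.2, with overlapping ranges. Their difference (blood endothelial minus fibroblast -1.53 ± 0.55, adjusted p = 0.0378) was lost without PLV 2 (adjusted p = 0.402) and without the block (adjusted p = 0.139). It was also lost with DESeq2 (adjusted p = 0.066), with at least 1000 UMIs per cell (adjusted p = 0.12) and with doublets kept (adjusted p = 0.0959). Pericyte-like cells held 27.9 ± 39.1 CPM (SD, n = 3), muscle-like cells 16.0 ± 0.553 and lymphatic endothelial-like cells 4.47 ± 3.88. Fibroblast-like minus muscle-like was 4.33 ± 0.66, adjusted p = 6.18e-05, and lymphatic minus blood endothelial-like was -5.14 ± 0.79, adjusted p = 0.000131.

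Igfbp2, among the 5 classes, was found nearly always in muscle-like cells, with 14, 4 and 223 UMIs (6.35, 5.11 and 91.0 CPM) against 1 UMI in the other 4 classes. It did not pass the filter on low counts between classes and was not tested there.

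**Figure D2:**
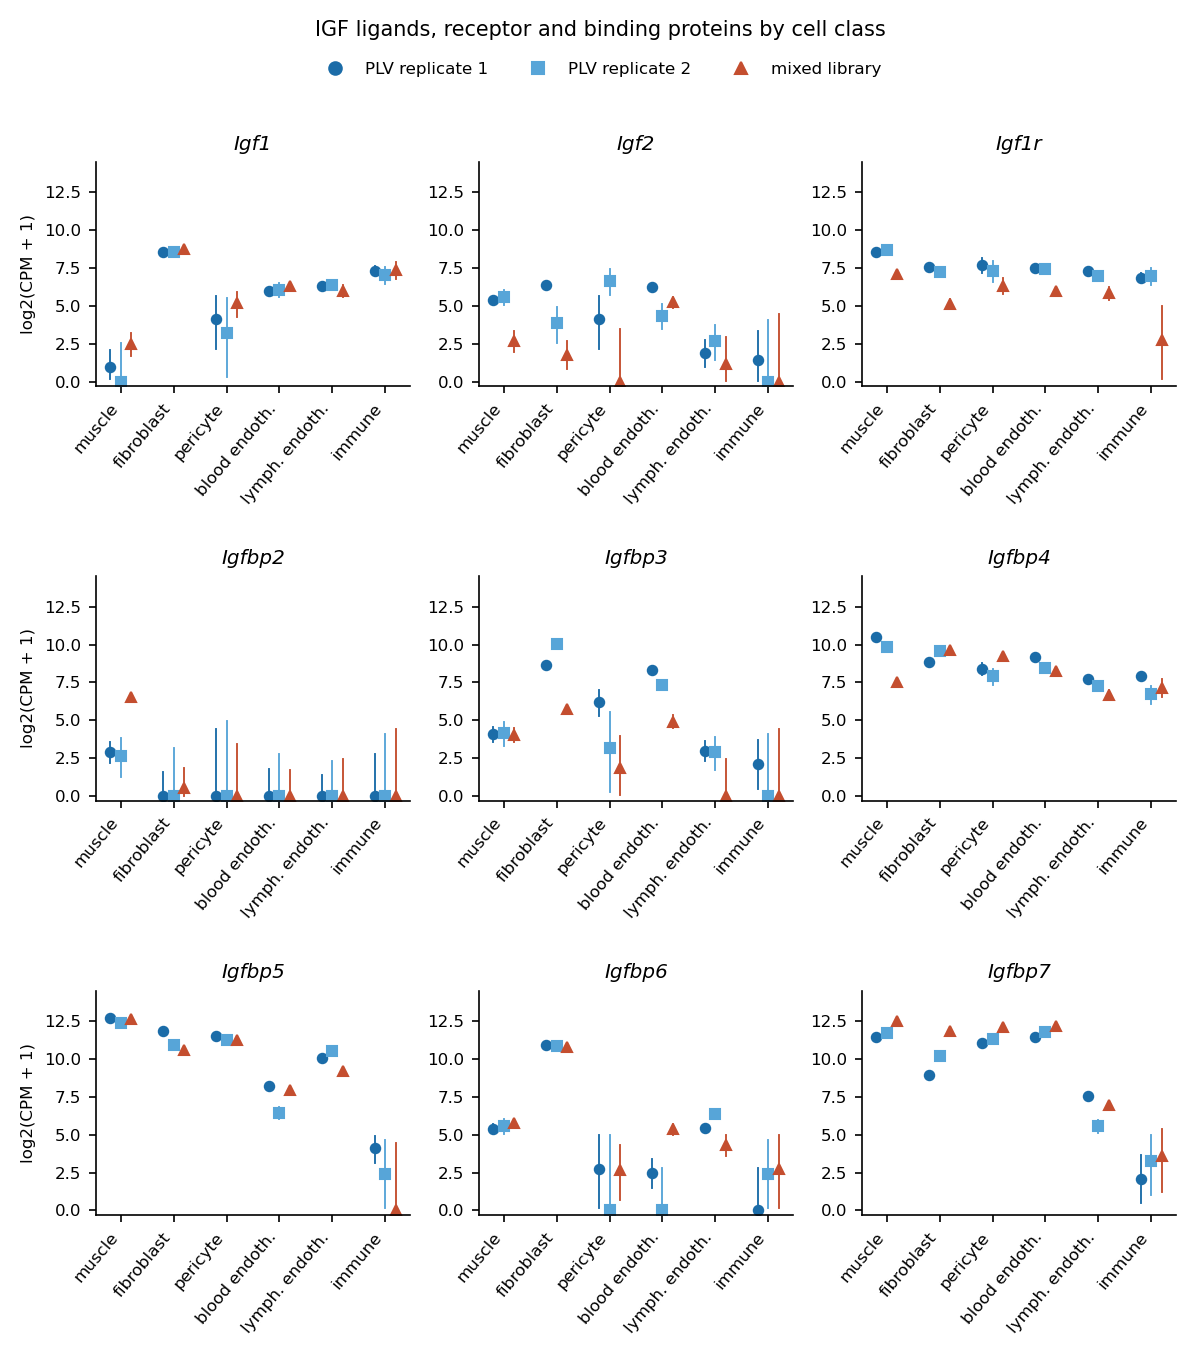
Level of each of the 9 genes, as log2(CPM + 1), in 5 cell classes and in immune cells, with 1 point per library and 95% exact Poisson intervals of the counts. Igf1 and Igfbp6 are highest in fibroblast-like cells and Igf1r and Igfbp5 in muscle-like cells of every library, and Igfbp7 is low in lymphatic endothelial-like and immune cells.

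Over the 10 pairs of classes, 8 of the 9 genes were tested and 44 of their 80 differences passed. Read against the percentage of all 10322 genes that passed in the same pair, the counts were 5 of 8 for fibroblast minus muscle (39.6%), 3 for pericyte minus muscle (11.7%), 4 for blood endothelial minus muscle (41.3%) and 7 for lymphatic endothelial minus muscle (43.2%). Against fibroblast-like cells, 3 passed for pericyte-like (23.9%), 4 for blood endothelial-like (38.1%) and 7 for lymphatic endothelial-like cells (38.2%). The last pairs gave 3 for blood endothelial minus pericyte (23.7%), 4 for lymphatic endothelial minus pericyte (28.2%) and 4 for lymphatic minus blood endothelial (21.5%). In lymphatic endothelial-like minus fibroblast-like, every tested member except Igf1r was lower. Dissociation stress genes (11 listed) differed between classes as well: 8 were lower in blood endothelial minus muscle, and 7 were higher in lymphatic minus blood endothelial. Their part in the differences of the members was not tested.

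Muscle-like cells fell into kinds that differed in members including Igfbp4, Igf2, Igfbp3 and Igfbp6. A kind named by Ano1 and Hmcn2 was found in each library (139, 57 and 197 cells), as was one named by Pln and Sorbs2 (285, 53 and 43 cells). A further kind, named by P2rx1 and Col12a1, was found in mixed alone (74 cells). Ano1 encodes a calcium-activated chloride channel known from the pacemaking of lymphatic muscle, and Pln encodes phospholamban, a brake on the calcium pump of the sarcoplasmic reticulum.

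Igfbp4 separated these kinds in each library. The Pln kind held 2161, 1542.5 and 1342.5 CPM and the Ano1 kind 16.7, 3.10 and 9.91. The kinds did not overlap, and the Pln kind minus the Ano1 kind was 7.38 ± 0.24, adjusted p = 1.14e-30. In this comparison 6 of the 7 tested members passed, beside 32.7% of all 7740 genes. Of the 11 stress genes 6 were higher and 0 lower in the Pln kind (list median 0.78 on the log2 scale), and their part in the differences was not tested. The P2rx1 kind, present in 1 library and not tested, had 12 UMIs of Igfbp4.

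Igf2 was also higher in the Pln kind, with 58.5, 73.8 and 38.4 CPM against 3, 2 and 0 UMIs in the Ano1 kind (adjusted p = 2.22e-11). A further 3 binding protein genes, Igfbp6, Igfbp3 and Igfbp5, were higher in the Ano1 kind. Igfbp6 had 91, 36 and 110 UMIs there and 0, 0 and 10 in the Pln kind (adjusted p = 5.14e-11). Igfbp3 held 45.9, 37.2 and 28.2 CPM against 2, 1 and 0 UMIs in the Pln kind (adjusted p = 2.91e-09). Igfbp5 was high in both kinds, at 10447, 7799 and 8621 CPM in the Ano1 kind and 4823, 3697 and 4117 in the Pln kind (-0.91 ± 0.14, adjusted p = 7.29e-07). The smallest passing difference was that of Igfbp7, which held 3607, 3766 and 6442 CPM against 2402, 3007 and 3973 (-0.36 ± 0.15, adjusted p = 0.0481), a call lost without PLV 1 (adjusted p = 0.334), without mixed (adjusted p = 0.122), without the block (adjusted p = 0.443) and in 6 other alternatives. Igf1r held 370.2, 425 and 138 CPM against 385, 391 and 192 and did not pass (0.28 ± 0.16, adjusted p = 0.187).

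The P2rx1 kind held most of the Igfbp2. It had 203 of the 223 Igfbp2 UMIs of muscle-like cells in mixed, or 246 CPM (95% interval 213 to 282), against 15.2 CPM in the Ano1 kind and 0 UMIs in the Pln kind of the same library. Its Igfbp5 level of 3975 CPM lay near that of the Pln kind, whereas its Igfbp4 level lay near that of the Ano1 kind.

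Among fibroblast-like cells the subset with Cxcl14 and Scara5 (117, 61 and 99 cells) held 816, 1454 and 148 CPM of Igfbp3. The Pi16 subset (132, 12 and 41 cells), which carries genes known from adventitial fibroblasts, held 7.07, 0 and 20.6. The subsets did not overlap, and Pi16 minus Cxcl14 was -5.29 ± 0.77, adjusted p = 0.00562. It was the 1 member of 7 tested that passed, beside 2.83% of all 6705 genes. Of the 11 stress genes 2 were lower in the Pi16 subset. The call was lost without PLV 1 (-4.20, adjusted p = 0.474), without PLV 2 (-4.75, adjusted p = 0.0881) and without the block (-5.83, adjusted p = 0.0598).

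Igf1 held 221, 485 and 452 CPM in the Pi16 subset and 428, 347 and 670.5 in the Cxcl14 subset, and these ranges overlapped (-0.36 ± 0.31, adjusted p = 0.802). Igfbp6 held 2453, 2029.7 and 1985 CPM in the Pi16 subset and 1414, 1898 and 1010.1 in the Cxcl14 subset, without overlap but also without passing (0.64 ± 0.28, adjusted p = 0.372). Igfbp4 held 92.0, 166 and 551 CPM against 1405, 851 and 483, with overlapping ranges (adjusted p = 0.23). A subset found in mixed alone and named by Col4a4 and Itgbl1 (136 cells) held 5429.5 CPM of Igfbp7, 2167 of Igfbp6 and 1126 of Igfbp4, but 2 UMIs of Igfbp3. The cell with 143 Igf2 UMIs lay in an unnamed cluster of 96 fibroblast-like cells of PLV 1, led by Myoc, Gpx3 and Ccdc80, which held 598 CPM of Igfbp3.

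In blood endothelium capillary-like cells (121, 48 and 104) held 223, 207 and 54.4 CPM of Igfbp3 and venular-like cells (99, 12 and 41) 2.10, 0 and 1.96. The subsets did not overlap, and venular-like cells, with 1, 0 and 1 UMIs, were lower (adjusted p = 2.78e-06); these counts are too few for a fold. With predicted doublets kept the sign turned, at 0.60 on the log2 scale (adjusted p = 0.604), and the cause was not tested. Arterial-like cells, named in PLV 1 alone (76 cells) and not tested, held 926 CPM of Igfbp3 and 297 of Igf2, above the capillary-like and venular-like cells of that library, and 0 UMIs of Igf1.

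Venular-like cells had more Igfbp4 and Igf1. Igfbp4 held 777, 856 and 537 CPM against 93.0, 182 and 174 in capillary-like cells (2.45 ± 0.23, adjusted p = 1.38e-05), and Igf1 held 111, 113 and 151 against 58.7, 50.2 and 46.0 (1.47 ± 0.22, adjusted p = 0.000594). Neither gene overlapped between these subsets. Igfbp7 held 2267, 2679 and 4359 CPM against 3632.5, 3794 and 6327 and was lower in venular-like cells (-0.40 ± 0.09, adjusted p = 0.0108), a call lost without PLV 1 (adjusted p = 0.135), without mixed (adjusted p = 0.0588) and without the block (adjusted p = 0.636). Of the 7 members tested 4 passed, beside 14.7% of all 7061 genes. Of the 11 stress genes 9 were higher and 0 lower in venular-like cells (list median 0.96 on the log2 scale), and their part in these differences was not tested. An unnamed cluster of 29 blood endothelial-like cells in mixed, led by Cytl1, Vwf and Ctla2a, held 21.0 CPM of Igfbp7.

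**Figure D3:**
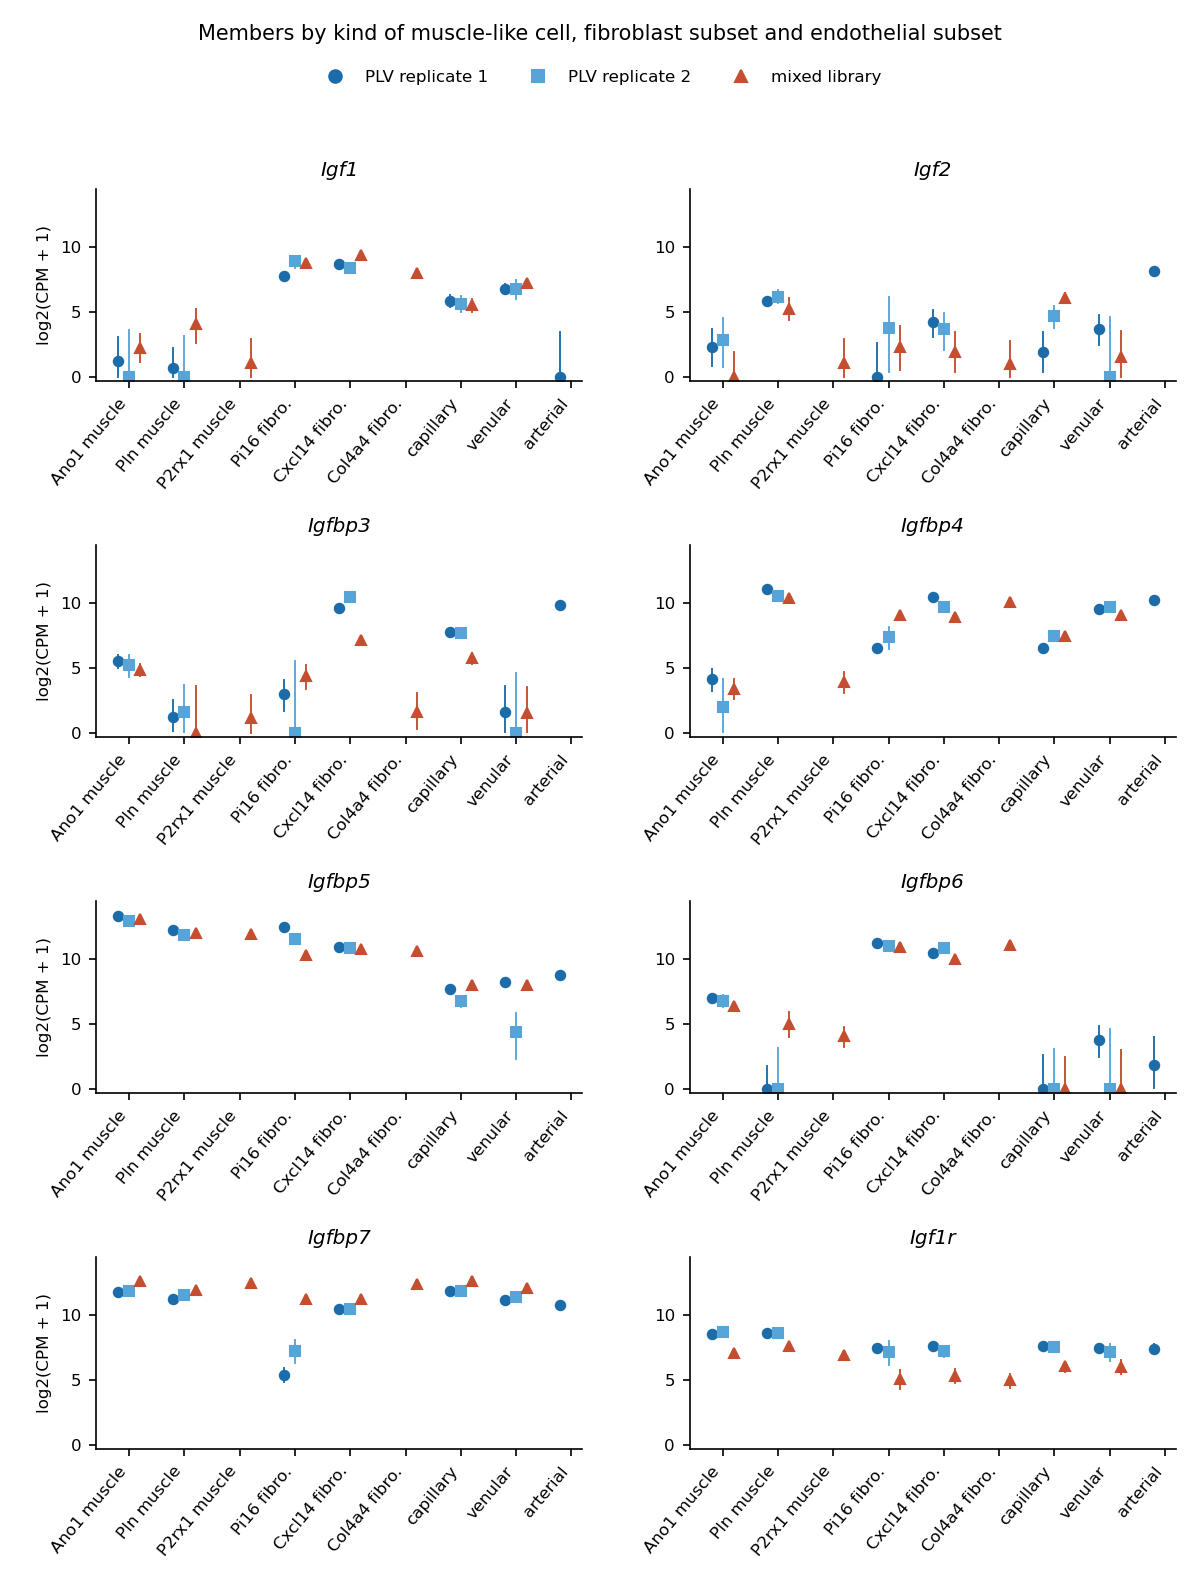
Level of 8 members, as log2(CPM + 1), in kinds of muscle-like cells, fibroblast subsets and blood endothelial subsets, with 1 point per library and 95% exact Poisson intervals. Igfbp4 is high in the Pln kind and low in the Ano1 and P2rx1 kinds, and Igfbp3 is high in capillary-like and low in venular-like cells of each library.

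The mixed library was next compared with both PLV libraries within each class. With 1 mixed library, the test assumes that it varies as the PLV libraries do, leaves 1 residual degree of freedom per gene and takes part of its spread from other genes. Igf1r had its lowest level in mixed in all 5 classes, and the difference passed in 3 of them: in muscle-like (-1.27 ± 0.26, adjusted p = 0.000498), fibroblast-like (-1.80 ± 0.35, adjusted p = 0.00126) and blood endothelial-like cells (-1.40 ± 0.29, adjusted p = 0.00783). It did not pass in pericyte-like (-0.95 ± 0.41, adjusted p = 0.248) or lymphatic endothelial-like cells (-1.14 ± 0.30, adjusted p = 0.218). The levels given above for each class show mixed below both PLV libraries in each. Immune cells, not tested, held 115, 125 and 5.61 CPM. Whether either version of Cell Ranger was set to count intronic reads was not stated.

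Igfbp7 was higher in mixed in muscle-like (1.18 ± 0.31, adjusted p = 0.0064), fibroblast-like (2.70 ± 0.43, adjusted p = 0.000155) and pericyte-like cells (1.10 ± 0.26, adjusted p = 0.0124). Fibroblast-like cells held 501, 1163 and 3759 CPM. Different clusters made up this class: the Col4a4 subset, in mixed alone, was 49.3% of its fibroblast-like cells and held 5127 of their 7946 Igfbp7 UMIs and 2 of their 113 Igfbp3 UMIs. The fibroblast-like difference was 2.13 without PLV 1 and 3.47 without PLV 2. With DESeq2 the fibroblast-like (adjusted p = 0.109) and pericyte-like calls (adjusted p = 0.536) were lost. The pericyte-like call was also lost at Leiden resolution 2, where the difference was 1.04. The test was repeated within single kinds and subsets, a choice made after the data were seen. Its log2 values are on the TMM scale, and in the Cxcl14 subset that of Igfbp7 is larger than the CPM levels alone give. In the Cxcl14 subset Igfbp7 held 1450.0, 1445 and 2401 CPM (1.22 ± 0.24, adjusted p = 1.68e-05). In the Pi16 subset it held 41.0, 153 and 2425 CPM, with the PLV libraries themselves far apart and 12 cells in PLV 2. The Pi16 clusters were also unlike: those of PLV 1 and PLV 2 had 8 of 8 subset markers and were led by Smpd3 and Mrgprg, and that of mixed had 5 of 8 and was led by Sfrp2 and Sfrp4. No p is therefore given for the Pi16 subset here. Igfbp7 also passed in the Ano1 kind (1.08 ± 0.28, adjusted p = 0.0107) and in capillary-like cells (0.91 ± 0.19, adjusted p = 0.000179), but not in the Pln kind (0.78 ± 0.31, adjusted p = 0.161) or venular-like cells (0.92 ± 0.28, adjusted p = 0.223). Neither did it pass in the blood endothelial-like (0.73 ± 0.26, adjusted p = 0.156) or lymphatic endothelial-like class as a whole (0.24 ± 0.56, adjusted p = 0.895).

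Igfbp4 was lower in muscle-like cells of mixed (-2.48 ± 0.33, adjusted p = 2.35e-07), as was Igf2 (-2.76 ± 0.38, adjusted p = 5.62e-07). The Pln kind, where both genes are higher, made up 67.2%, 48.2% and 13.7% of muscle-like cells. Within the Pln kind Igfbp4 differed by -0.23 ± 0.30, adjusted p = 0.769 and Igf2 by -0.49 ± 0.45, adjusted p = 0.647, and within the Ano1 kind Igfbp4 differed by 0.02 ± 0.87, adjusted p = 0.993. Igfbp2 was higher in mixed (4.14 ± 0.32, adjusted p = 1.81e-13), the library with the P2rx1 kind, and within the Ano1 kind it differed by 0.13 ± 0.59, adjusted p = 0.936. These 3 muscle differences were smaller, and not called, within the kinds tested, but those tests were incomplete. Igf2 was not tested in the Ano1 kind nor Igfbp2 in the Pln kind, and Igfbp4 was low in the Ano1 kind, with a wide error. The P2rx1 kind, in mixed alone, could not be compared. The part of the make-up of kinds in these differences was not tested.

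Igfbp3 was lower in mixed in fibroblast-like (-3.25 ± 0.52, adjusted p = 0.000191) and blood endothelial-like cells (-2.91 ± 0.39, adjusted p = 5.49e-05). The blood endothelial-like value was -2.32 without PLV 1. This class too was made up of different clusters. Arterial-like cells, named in PLV 1 alone, held 340 of the 497 Igfbp3 UMIs of that library. The cluster led by Cytl1 and Vwf, in mixed alone, held 0 Igfbp3 UMIs. In PLV 2 an unnamed cluster, outside the class, shared the leading genes Cytl1, Gkn3, Mgp and Gja5 with the arterial-like one. The fibroblast-like value was -3.88 without PLV 1 and -2.31 without PLV 2, and DESeq2 did not call it (adjusted p = 0.0767). Igfbp3 was also lower within the Cxcl14 subset (-2.45 ± 0.32, adjusted p = 4.24e-12) and within capillary-like cells (-1.84 ± 0.32, adjusted p = 2.98e-06). In the Pi16 subset, with 5, 0 and 10 UMIs, the sign was the opposite. The blood endothelial calls of Igf1r and Igfbp3 were lost with at least 1000 UMIs per cell (adjusted p = 0.123 and adjusted p = 0.106) and at Leiden resolution 2 (adjusted p = 0.251 and adjusted p = 0.245).

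Further differences were found within subsets. Igf2, lower in muscle-like cells of mixed, was higher in its capillary-like cells, at 2.86, 25.1 and 67.7 CPM (2.60 ± 0.43, adjusted p = 4.93e-07). Of these UMIs 1 cell held 11 of 12 in PLV 2, and 1 cell 16 of 56 in mixed. Igf1 was higher in the Cxcl14 subset of mixed (1.28 ± 0.28, adjusted p = 0.000201). In the Pi16 subset the Igf1 level of mixed lay between those of PLV 1 and PLV 2, and 1 cell held 69 of the 268 Igfbp4 UMIs of mixed.

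Some calls rested on few cells. Igf2 passed in fibroblast-like cells (-3.94 ± 0.76, adjusted p = 0.00121), but without the highest cell of each sum it was -1.84 (adjusted p = 0.412). Igfbp6 passed in blood endothelial-like cells (3.78 ± 0.54, adjusted p = 0.000135), where PLV 1 and PLV 2 had 7 and 0 UMIs and all 63 UMIs in mixed lay in the unnamed cluster led by Cytl1 and Vwf, 29 of them in 1 cell; without the highest cell of each sum it was not called (adjusted p = 0.0889). Without PLV 1, which leaves a PLV library with 0 UMIs, its fitted value was 8.50. Igfbp4 was higher in pericyte-like cells of mixed (1.28 ± 0.32, adjusted p = 0.019), at 337, 237 and 605 CPM, but not with DESeq2 (adjusted p = 0.998). At Leiden resolution 2 this Igfbp4 difference was 0.83 and was not called.

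Of the members tested, 5 of 8 passed in muscle-like cells (15.3% of all genes passed there), 4 of 8 in fibroblast-like (11.8%), 2 of 6 in pericyte-like (2.29%), 3 of 8 in blood endothelial-like (2.4%) and 0 of 6 in lymphatic endothelial-like cells by edgeR (0.191%). In that last class 3 members had an unadjusted p under 0.05 and DESeq2 called 0. Within single kinds and subsets, 2 of 7 passed in the Ano1 kind (4.55%), 4 of 7 in the Cxcl14 subset (9.88%), 4 of 7 in the Pi16 subset (11.5%, read with the limits given for its clusters) and 4 of 7 in capillary-like cells (4.61%). In the Pln kind (3.12%) and in venular-like cells (0.406%) 0 of 5 passed by edgeR, each with 2 at an unadjusted p under 0.05, and DESeq2 was not run there.

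Other measures moved with the library. The stress genes Hspa1a, Hspa1b and Dnajb1 were higher in mixed in each of the 5 classes, whereas in capillary-like cells alone none of the 11 genes of the dissociation stress list was. The list summed to 17176.5, 12574 and 29178 CPM in lymphatic endothelial-like cells and to 10385, 13371 and 8966 CPM in fibroblast-like cells. Fibroblast markers (8 genes, of which 1, 1 and 0 were at 0) summed to 1500, 1444 and 5024 CPM in muscle-like cells, beside 44361, 37461 and 115770 CPM in fibroblast-like cells themselves. Their part in the differences of the members was not tested.

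Whether the library difference was unlike between classes was tested as an interaction. Pericyte-like and muscle-like cells differed in Igfbp4 (pericyte minus muscle 3.87 ± 0.37, adjusted p = 1.04e-21), 1 of 9 members beside 1.43% of all genes. As given above, muscle-like and fibroblast-like cells were made up of different kinds and subsets in PLV and mixed, and Igfbp4 was not called within the Pln or Ano1 kind. The part of this make-up in the interaction was not tested. Fibroblast-like cells differed from muscle-like cells in 3 of 9 members (5.41%): Igfbp4 (3.35 ± 0.45, adjusted p = 6.55e-11), Igfbp3 (-3.12 ± 0.48, adjusted p = 2.03e-08) and Igfbp7 (1.62 ± 0.53, adjusted p = 0.0441). Without PLV 1 the Igfbp4 value was 2.61 and that of Igfbp3 -3.96, and without PLV 2 they were 4.07 and -2.54. Lymphatic and blood endothelial-like cells differed in 2 of 8 (1.08%), Igfbp6 (-5.02 ± 0.60, adjusted p = 3.61e-13) and Igfbp5 (-1.47 ± 0.31, adjusted p = 0.000534). DESeq2 called neither (adjusted p = 0.9999 for both), and blood endothelial-like cells differed in make-up as given above, with all Igfbp6 UMIs of mixed in a cluster found there alone.

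**Figure D4:**
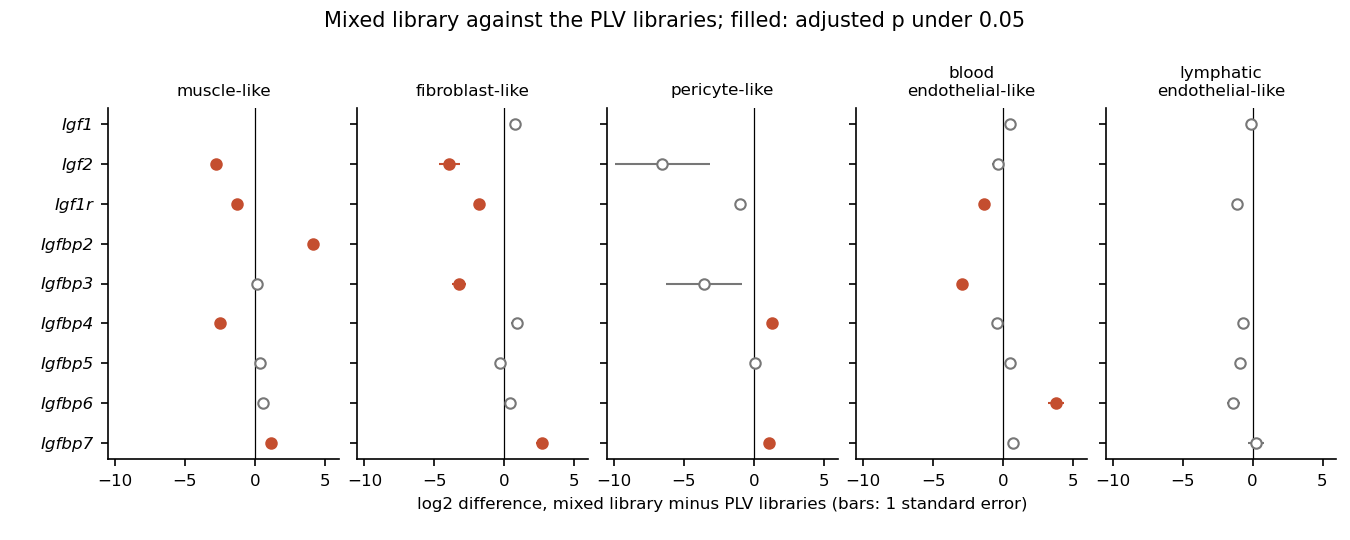
Log2 difference of the mixed library minus the 2 PLV libraries for each tested member in 5 classes (points, with 1 standard error from edgeR; filled points have an adjusted p under 0.05). Igf1r lies left of 0 in every class, Igfbp7 is filled and right of 0 in muscle-like, fibroblast-like and pericyte-like cells, and no point is filled in lymphatic endothelial-like cells.

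Of 35 other genes listed for the pathway, 25 could be tested between classes. In fibroblast minus muscle 13 passed (8 with more and 5 with less in fibroblast-like cells), beside 39.6% of all genes, with a list median of -0.05 on the log2 scale against 0.01 for all genes. Higher in fibroblast-like cells were Pappa, which encodes PAPP-A (14, 21 and 25 UMIs against 2, 0 and 2, adjusted p = 0.000111), the growth hormone receptor gene Ghr (3.16 ± 0.25, adjusted p = 8.03e-08) and the endocytic receptor gene Lrp1 (2.28 ± 0.38, adjusted p = 0.000164). Grb14, which encodes an adaptor that restrains the insulin receptor, was lower (-4.19 ± 0.65, adjusted p = 7.71e-05).

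Against muscle-like cells, lymphatic endothelial-like cells had 13 pathway genes lower and 4 higher, 17 of 25 beside 43.2% of all genes (list median -0.78, all genes -0.00165). Among the lower ones were the docking protein gene Irs2 (-3.87 ± 0.59, adjusted p = 5.68e-05), Lrp1 (15, 0 and 0 UMIs in lymphatic endothelial-like cells, adjusted p = 4.72e-07), the docking protein gene Irs1 (4, 0 and 0 UMIs, adjusted p = 1.05e-07) and the protease gene Htra1 (28, 0 and 2 UMIs, adjusted p = 2.09e-07). Against fibroblast-like cells 13 were lower and 5 higher, beside 38.2% of all genes (list median -0.83, all genes 0.01). Against blood endothelial-like cells 7 were lower and 4 higher, beside 21.5% of all genes (list median -0.28, all genes -0.05), among the lower ones the insulin receptor gene Insr (-2.66 ± 0.28, adjusted p = 3.7e-06).

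The pathway list gave 4 genes higher and 7 lower in the Pln kind of muscle-like cells, of 24 tested, beside 32.7% of all genes (list median 0.05, all genes -0.00220). Stc1, whose product inhibits the PAPP-A proteases, held 118, 74.5 and 123 CPM in the Ano1 kind and 0 UMIs in the Pln kind of each library. Against a floor of 3 counts per library, its level in the Pln kind was at least 58.6-fold, 11.4-fold and 12.8-fold lower. Grb14 held 114, 179.9 and 104 CPM in the Ano1 kind and 6.73, 6.51 and 6.41 in the Pln kind (adjusted p = 3.21e-16). Lrp1 was lower (-1.46 ± 0.17, adjusted p = 7.92e-10) and the adaptor gene Gab1 higher (1.43 ± 0.28, adjusted p = 3.71e-05) in the Pln kind.

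Between fibroblast subsets 1 of 24 pathway genes passed, beside 2.83% of all genes. It was Pappa, at 0, 0 and 2.06 CPM (1 UMI in all) in the Pi16 subset and 27.2, 60.3 and 11.7 in the Cxcl14 subset (adjusted p = 0.0443), the subset that also held more Igfbp3. Of 19 genes in venular minus capillary, 1 was higher and 3 were lower, beside 14.7% of all genes. The higher one was Insr, at 157, 391 and 229 CPM against 74.4, 115 and 23.0 (2.13 ± 0.30, adjusted p = 0.00036), without overlap.

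In muscle-like cells 6 of 25 pathway genes passed in mixed minus PLV, beside 15.3% of all genes and 3 in each direction, among them Irs1 (-1.42 ± 0.30, adjusted p = 0.000577), Insr (-1.18 ± 0.28, adjusted p = 0.00211) and Stc1 (1.30 ± 0.25, adjusted p = 0.000201). Irs1 was higher in the Pln kind, and Stc1 was found in the Ano1 kind but not the Pln kind. Neither was called within the Ano1 or Pln kind, whereas Insr was called within the Ano1 kind. The part of the make-up of kinds was not tested. In fibroblast-like cells 2 of 28 were lower, beside 11.8% of all genes that passed. They were Irs2 (-2.35 ± 0.55, adjusted p = 0.00572) and H19, the imprinted noncoding RNA gene next to Igf2, with 28, 3 and 0 UMIs. Its level in mixed was at least 10.7-fold below that of PLV 1, with a floor of 3 counts; the 3 UMIs of PLV 2 lie at that floor, and no fold is given.

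Over the 15 sums of 5 classes in 3 libraries, the genes most like each member were found by Pearson's r of log2(CPM + 10), among 6342 genes with at least 50 CPM in a sum. The sums share libraries and depth, and r is given as a description. Nearest to Igf1 were Cfb (0.95), Blvrb (0.94) and Ftl1 (0.91), and to Igf2, less closely, Tacc2 (0.86), Pck2 (0.76) and Ankrd28 (0.75). Igf1r was most like Pias1 (0.95) and Rc3h2 (0.94). For the binding proteins these were Hpse2 (0.97) and Adra2c (0.97) for Igfbp2, and Scd1 (0.93), Nectin3 (0.90) and Slc44a1 (0.89) for Igfbp3. They were Lamb2 (0.77), Cdk2ap2 (0.75) and Acat1 (0.74) for Igfbp4, and Cacna2d1 (0.94), Sdc4 (0.93) and Tppp3 (0.93) for Igfbp5. Igfbp6 was nearest to Sfrp1 (0.94), Dcn (0.93) and Timp2 (0.93), and Igfbp7 to Col4a2 (0.93), Emp2 (0.91) and Pdgfd (0.91). Between members the highest r was that of Igf1 with Igfbp6 (0.71) and the lowest that of Igf1 with Igf1r (-0.54).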

How the data were processed

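UMI counts per gene and barcode were deposited by the authors, made with Cell Ranger 6.1.2 (PLV) and Cell Ranger 4 (mixed), per the file headers, on GRCm38 per the submitters' processing notes. Alignment settings, use of strand and counting of intronic reads were not stated there. Barcodes with at least 500 UMIs, 300 genes, at most 15% mitochondrial and 20% haemoglobin UMIs were kept, and predicted doublets removed. Each library was clustered with scanpy 1.11.5 (2000 variable genes, 50 components, 15 neighbours, Leiden resolution 1 with leidenalg 0.10.2), without the members and the pathway list. A class name needed 3 markers raised 2-fold; the rule for subset names was set after clusters were seen. UMIs were summed per library and class or subset and tested with edgeR 4.0.16 in R 4.3.3 (quasi-likelihood, TMM, filterByExpr, Benjamini-Hochberg at 0.05 over all tested genes). Classes and subsets come from the same libraries, so the library was a block. P-values measure only the spread between these libraries of pooled mice. The alternatives were DESeq2 1.42.0, other size factors, no low-count filter, no block, each library left out, other cell filters, doublets kept, other resolutions, and members used in clustering. On simulated counts, 100% of 4-fold changes were recovered for fibroblast minus muscle (10021 genes) and 74% for mixed minus PLV in muscle (10668 genes), but 31.5% for the interaction of fibroblast minus muscle (11436 genes). The simulation used 1 fixed dispersion, changed only well-counted genes and gave mixed minus PLV no separate library effect. Recovery in the real data can be lower. The members and lists were chosen with earlier results of these data known. All members are named, with up to 4 passing pathway genes of largest difference per comparison and the 3 genes nearest each member, of which 2 are not reported here. Gene positions are Ensembl's on GRCm38 and promoters RefSeq's.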

Additional observations from a re-analysis of the deposited data

Results flagged for a closer look

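The difference of mixed minus PLV was unlike between classes, by a test of the interaction, for Igfbp7 (1.62), Igfbp3 (-3.12) and Igfbp4 (3.35) in fibroblast-like minus muscle-like cells, for Igfbp4 (3.87) in pericyte-like minus muscle-like cells, and for Igfbp5 (-1.47) and Igfbp6 (-5.02) in lymphatic minus blood endothelial-like cells. With 1 PLV library left out, which gives a value and no test, Igfbp5 was -2.77 without PLV 1 and -0.60 without PLV 2, and Igfbp6 was -10.25 and -4.23. The -10.25 is a fitted value, as PLV 2 had 0 Igfbp6 UMIs in blood endothelial-like cells. DESeq2 did not call Igfbp7, Igfbp5 or Igfbp6. Muscle-like, fibroblast-like and blood endothelial-like cells were made up of different kinds and subsets in PLV and mixed, and within the Pln and Ano1 kinds Igfbp4 was not called. The part of this make-up was not tested.

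Cells outside the compared classes also held members above the limit that a count of 0 allows. Igfbp5 averaged 689 CPM in Schwann-like cells, Igfbp6 averaged 5285 CPM in perineurial-like cells, and Igfbp4 averaged 161 CPM in immune cells. Of the perineurial-like Igfbp6 UMIs in mixed, 260 of 295 lay in 1 of 10 cells, and the level without that cell was 613 CPM. Igfbp5 was at 2744 CPM in keratinocyte-like cells of PLV 1. In PLV 2, 72 unnamed cells led by Cytl1, Gm10800 and Gkn3, with a median of 938 UMIs, held 653 CPM of Igfbp7 and 246 of Igf2. Their leading genes Cytl1, Gkn3, Mgp and Gja5 also led the arterial-like cluster of PLV 1. In mixed, 40 unnamed cells led by Ccl4, Ccl3 and Il7r, with a median of 1387 UMIs, held 9749 CPM of Igfbp5.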

How the results depend on the processing

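In all, 75 of 163 member differences passed, and 38 of the 75 kept direction and call in every alternative run; 72 kept direction. The counts of passing members between classes (44), kinds of muscle-like cells (6) and endothelial subsets (4) stayed within 1.5 times in each alternative, with ranges of 39 to 53, 5 to 7 and 3 to 4 when 1 library was left out. Between fibroblast subsets the count of 1 became 3 without the low-count filter, 2 with at least 1000 UMIs per cell, where Igfbp3 was not among the 6 tested, 0 at Leiden resolution 2, and 0 to 4 with 1 library left out; Igfbp3 was the call lost where the count was 0. For mixed against PLV the count of 14 became 7 with DESeq2 and 9 at resolution 2, and the 6 differences between classes became 3 with DESeq2. Without the replicate block the counts were 38 between classes, 5 between muscle kinds, 3 between endothelial subsets and 0 between fibroblast subsets. Reversed values were Igfbp3 in venular minus capillary with doublets kept (0.60), Igfbp3 mixed minus PLV in the Pi16 subset alone (2.37) and Igfbp4 mixed minus PLV in the Ano1 kind alone (0.0229); the cause was not tested. Of values that did not pass, 30 passed in at least 1 alternative and 28 changed sign. Leaving out a PLV library from mixed against PLV leaves a value and no test, and mixed itself cannot be left out there. At resolution 0.5 the fibroblast and endothelial subsets gave no value. Depth limits pericyte-like cells (27 to 58 per library) and the Pi16 and venular-like cells of PLV 2 (12 each).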

Other observations

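Members also varied among cells that entered no comparison. The mast cell genes Mcpt4, Cma1 and Cpa3 led a cluster of 23 immune cells in PLV 1 with 760.3 CPM of Igf1r, from 28 UMIs (95% interval 505 to 1099). In the same library 86 cells led by the macrophage genes Retnla and Lyz2 held 298 CPM of Igf1 and 344 of Igfbp4. Clusters led there by T cell, B cell and mast cell genes had 0 Igf1 UMIs.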
